A study of Mus musculus with 9 samples.

Results

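The cytosolic ribosomal protein genes described here were the protein-coding genes whose mouse symbol is Rpl or Rps with a number (with or without a closing a or x), Rplp0, Rplp1, Rplp2 or Rpsa. The rule found 76 of the 35771 genes in the table, 46 of the large and 30 of the small ribosomal subunit. All 76 passed the filter on low counts. The rule used names and no measured value.

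RNA was sequenced from mouse embryonic stem cells (ESCs) of mixed background that were homozygous for iMOS T1-Myc and carried RERT. Every group shares this genotype. iMOS T1-Myc is an inducible mosaic allele in which recombination gives a cell extra copies of Myc together with the yellow fluorescent protein EYFP. The study compared 3 populations, with 3 libraries each. Cells with 2 extra Myc copies, and likewise cells without an extra copy, were sorted by EYFP from the same kind of mosaic culture, which had received 20 µM 4-hydroxytamoxifen for 24 h and was sorted 24 h after the drug was removed. Uninduced cells came from cultures of the same line that were sorted as a control. The per-sample labels repeat the drug text for the uninduced libraries, so their group was taken from the titles and the design text. The labels call the libraries biological replicas and do not say whether they were separate cultures, so p-values measure the spread between these libraries. Sorting by EYFP assigns the copy number; the labels do not say how many ESC clones the cultures came from.

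The ribosome has a large subunit, which joins amino acids, and a small subunit, which reads the mRNA. Their proteins are needed in about equal molar amounts, and most ribosomal protein mRNAs open with a run of pyrimidines, the 5′ terminal oligopyrimidine (TOP) motif, through which mTOR signalling and the protein Larp1 control their translation. Myc is a transcription factor known for driving genes of ribosome production. This background is not a result of these data.

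Library totals ran from 4165286 to 8872303 counts. Myc stood at 138.3, 146.9 and 141.2 CPM (counts scaled to a common library total) with 2 extra copies, at 31.8, 30.6 and 32.4 CPM with no extra copy, and at 11.5, 14.1 and 14.2 CPM in uninduced cells, so the groups did not overlap. Replicate 1 with 2 extra copies stood apart from the others of its group, with a chi-square per degree of freedom of 2.67 and 3.03 over all genes, against 1.37 to 1.82 for the other pairs of replicates. Over the counts of the ribosomal protein genes alone, replicates 1 and 3 of the uninduced cells were furthest apart, at 7.5, followed by replicates 1 and 2 with 2 extra copies at 4.42, with 2.26 to 3.75 for the other pairs. All 11 ESC markers were above the filter, and their summed level was 3250 to 3380 CPM with 2 extra copies, 3580 to 3700 CPM with no extra copy and 3480 to 3530 CPM in uninduced cells. The edgeR test described further on called 6 of the 11 lower and 0 higher with 2 extra copies than with none. Of all tested genes it called 7.7% lower. Against uninduced cells it called 2 of the 11 lower and 1 higher, with 12.1% of all tested genes lower and 12.8% higher. Levels are shares of each library, so fewer cells of a type and less RNA per cell cannot be told apart, nor can a change in the total RNA of a cell be seen.

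Ribosomal protein genes were among the most abundant transcripts. Their mean level over the 9 libraries had a median of 974.1 CPM, against 26.49 CPM over all 13424 genes tested, and ran up to 2875 CPM for Rplp0, the protein at the base of the stalk that recruits translation factors. The 10 highest (Rplp0, Rpl4, Rpsa, Rps2, Rpl3, Rpl13a, Rplp1, Rps3, Rpl8 and Rps6) held 26.2% of the counts of the 76 genes. Levels per transcript length (TPM, computed here from annotated lengths) differed by 27 times between the highest and the lowest gene, with the middle values between 1782 and 3111 TPM. The highest were Rplp1 with 6596 TPM, Rpl13a with 4691 TPM, Rps2 with 4607 TPM, Rpl41 with 4535 TPM and Rpl23a with 4425 TPM. The lowest of the small subunit, Rps15a with 243.9 TPM, has a median annotated transcript of 5130 bases, which lowers its value per length. The lowest of the large subunit, Rpl27 with 374.9 TPM, shares its sequence with the pseudogene Rpl27-ps3, described further on.

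The plainest result was a small rise with 2 extra copies of Myc. The 76 genes together took 8.29%, 8.62% and 8.63% of all counts in the libraries with 2 extra copies, 8.17%, 8.31% and 8.02% in cells without one, and 7.81%, 8.14% and 8.17% in uninduced cells. The highest values were those of replicates 2 and 3 with 2 extra copies; replicate 1 with 2 extra copies lay between the libraries with no extra copy. By subunit, the large subunit took 5.11 ± 0.12% of counts with 2 extra copies, 4.89 ± 0.076% with no extra copy and 4.80 ± 0.12% in uninduced cells (mean ± SD, n = 3 each). The small subunit took 3.40 ± 0.071% with 2 extra copies, 3.28 ± 0.067% with no extra copy and 3.24 ± 0.077% in uninduced cells. Per gene and per length, the large subunit averaged 2489 ± 31.9 TPM with 2 extra copies, 2426 ± 30.9 TPM with no extra copy and 2396 ± 41.6 TPM in uninduced cells, and the small subunit averaged 2752 ± 22.7 TPM with 2 extra copies, 2686 ± 40.7 TPM with no extra copy and 2670 ± 41.3 TPM in uninduced cells.

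The ratio of large to small subunit counts hardly moved. It was 1.498, 1.508 and 1.504 with 2 extra copies, 1.489, 1.487 and 1.501 in cells without one, and 1.478, 1.490 and 1.480 in uninduced cells. The values with 2 extra copies lay above the uninduced ones without overlap and overlapped those with no extra copy. The difference rested largely on Rplp0 and Rpsa, the genes with the highest counts of each subunit. Without them the log2 difference of the ratio between 2 extra copies and none was -0.0006, against 0.011 with them. Between 2 extra copies and uninduced cells it was 0.0045 without them, against 0.020 with them. Against no extra copy, Rplp0 also had the largest rise of the 76 (log2 change 0.20) and Rpsa a small one (0.029). The parts of their level and of their change in this were not tested.

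**Figure D1:**
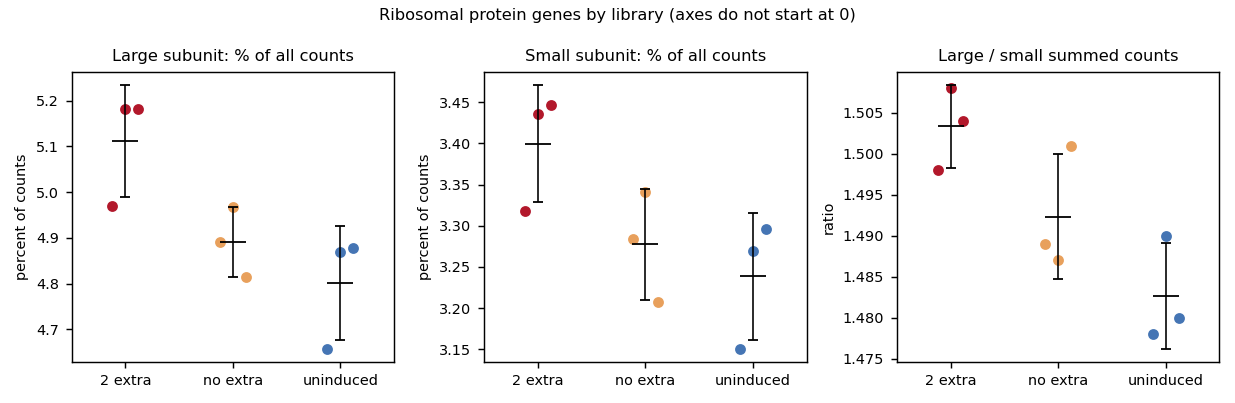
Share of all counts held by large subunit genes (left), by small subunit genes (middle) and the ratio of the summed counts (right), for each library (points) with mean ± SD (bars, n = 3), for 2 extra copies of Myc, no extra copy and uninduced cells from left to right; axes do not start at 0. The large subunit averages 5.11%, 4.89% and 4.80%, and the ratio runs from 1.478 to 1.508 over all 9 libraries.

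Between cells with 2 extra copies and cells with no extra copy, 30 of the 76 genes were called higher and 0 lower at an adjusted p below 0.05 (edgeR quasi-likelihood test, adjusted over all genes tested), where 8.3% of all tested genes were called higher and 7.7% lower. Here and below, such shares cover genes of all levels, with a median of 26.49 CPM against 974.1 CPM for the 76. Small changes are more easily called at high levels, and shares matched for level were not computed. A larger share of calls is therefore not by itself a larger response. Of the large subunit 17 of 46 genes rose, and of the small subunit 13 of 30. At an unadjusted p below 0.05, 45 were higher and 0 lower, and DESeq2 called 32 higher and 0 lower. The shares of 8.3% and 7.7% do not apply to these counts. Matching shares of all tested genes are not given for them, here or below. All 76 log2 changes were above 0 (66 with scaling by library totals alone, 73 with the length offset described further on), against 47.7% of all tested genes. The median log2 change was 0.085, or 1.061-fold, against -0.012 over all tested genes, and single genes ran from 0.0080 (Rpl13) to 0.20 (Rplp0). With library totals alone the median of the 76 genes was 0.0497, or 1.035-fold. In 45 genes every library with 2 extra copies was above every library with no extra copy, a pattern seen in 15.4% of all tested genes. The library that stands apart mattered for this count: without replicate 1 with 2 extra copies, 58 genes were called higher and the median log2 change was 0.127. Leaving out replicate 2 with 2 extra copies gave 18, and leaving out replicate 3 with no extra copy gave 17. The share of all tested genes called in these fits is not given. Whether the shift in calls is particular to the ribosomal protein genes therefore cannot be said. In each of the 14 other settings and the 9 fits with a library left out, 14 genes were called, among them Rplp0, Rpl3, Rpl5, Rpl6, Rpl7, Rpl7a, Rpl10a, Rpl14, Rps3, Rps4x, Rps7, Rps24 and Rps27.

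Against uninduced cells, 38 genes were called higher with 2 extra copies and 0 lower, where 12.8% of all tested genes were called higher and 12.1% lower. They were 24 of the large and 14 of the small subunit. At an unadjusted p below 0.05, 54 were higher and 0 lower, and DESeq2 called 40 higher and 0 lower. The log2 change was above 0 in 75 genes, against 47.5% of all tested genes, the exception being Rpl10 at -0.042 ± 0.15 (SE), and with the length offset in 61; the median was 0.094, or 1.068-fold, against -0.014 over all tested genes. Every library with 2 extra copies was above every uninduced library in 46 genes, against 19.1% of all tested genes. Without replicate 1 with 2 extra copies 60 genes were called. Without replicate 2 or 3 of that group 25 and 23 were, and without replicate 1 of the uninduced cells 20. The share of 12.8% does not apply to these fits. In every setting and every fit with a library left out, 15 genes were called, among them Rplp0, Rpl3, Rpl8, Rpl9, Rpl14, Rpl24, Rpl27a, Rpl37a, Rpl41, Rps7, Rps9, Rps16, Rps24 and Rps25.

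Cells with no extra copy differed little from uninduced cells. Only Rpl37a, Rpl24 and Rpl36, all of the large subunit, were called higher and 0 genes were called lower, where 7.1% of all tested genes were called higher and 6.39% lower. At an unadjusted p below 0.05, 10 were higher and 2 lower, and DESeq2 called 2 higher and 0 lower. The log2 change was above 0 in 42 genes and below 0 in 34, where 50.4% of all tested genes were above 0. With the length offset 23 were above 0 and 53 below, with upper-quartile scaling 32 and 44, with library totals alone 52 and 24, and without replicate 1 of the uninduced cells 26 and 50. The median was 0.0056, and -0.0066 with upper-quartile scaling, so it had no steady sign. The 3 comparisons share libraries, so their lists are not independent. Over all 3, 28 genes had no call, 19 were called higher with 2 extra copies against both other groups, 16 against uninduced cells only, 10 against no extra copy only, and Rpl24 in all 3; Rpl37a and Rpl36 were called in both comparisons with uninduced cells. A call in one comparison and not in another is not a test of a difference between them.

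**Figure D2:**
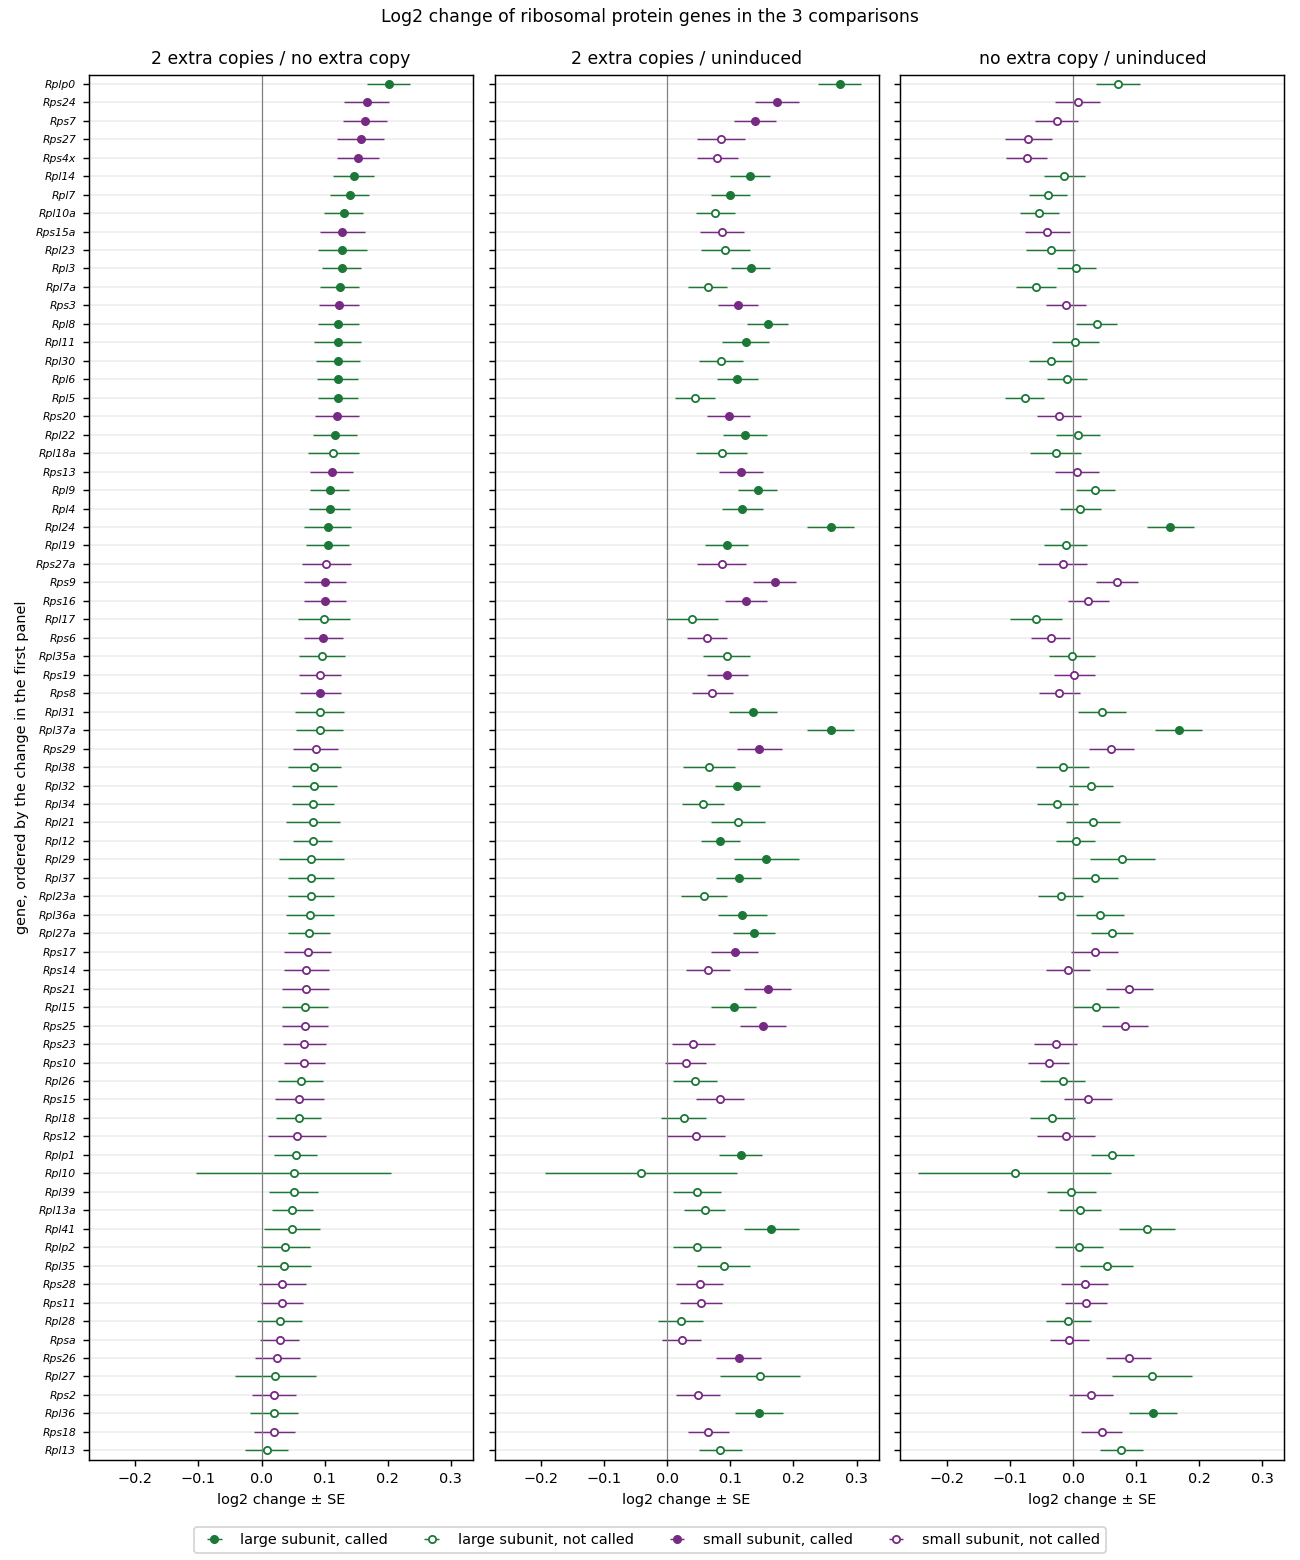
Log2 change ± SE (edgeR) of 75 of the 76 ribosomal protein genes in the 3 comparisons, ordered by the change between 2 extra copies and no extra copy; green marks the large and purple the small subunit, and filled points were called at an adjusted p below 0.05. All 75 points lie above 0 in the left panel, 74 in the middle panel and 41 in the right panel.

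Libraries differed in a trend over transcript length. The level of the other genes, relative to the mean over libraries, changed per doubling of transcript length by a log2 slope of 0.0055, -0.045 and -0.053 with 2 extra copies, by -0.0028, 0.0024 and 0.018 with no extra copy, and by 0.045, 0.014 and 0.016 in uninduced cells. Shorter transcripts were thus relatively higher in replicates 2 and 3 with 2 extra copies and lower in the uninduced libraries, above all in replicate 1. Replicate 1 with 2 extra copies lay among the libraries with no extra copy, and replicate 3 with no extra copy lay among the uninduced ones. Ribosomal protein transcripts are short, with a median length of 775.5 bases for the large and 744 bases for the small subunit. With an offset for this trend, fitted on the other genes, 31 genes were called higher with 2 extra copies than with none, and 29 of these were among the 30 called without it. Against uninduced cells the count fell to 21, 20 of them among the 38, and the median log2 change was 0.046. Shares of all tested genes called with the offset are not given. Between no extra copy and uninduced cells, Rpl37a and Rpl24 were called higher and Rps4x, Rps27, Rpl10a, Rpl7a and Rpl5 lower with the offset, and the median was -0.024. The part of the length trend in the rise was not tested beyond these values.

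**Figure D3:**
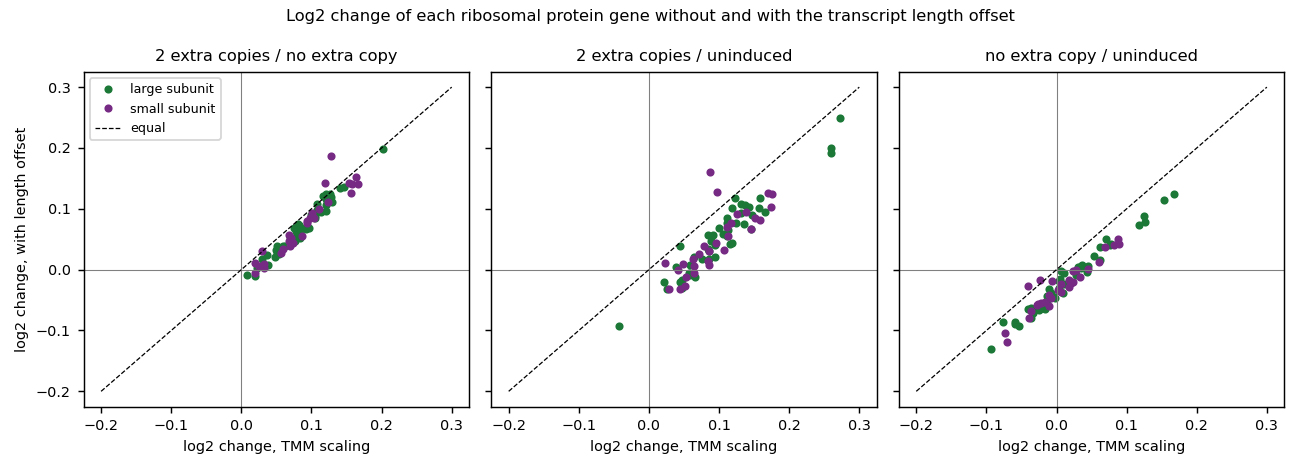
Log2 change of each of the 76 genes with the transcript length offset (vertical axis) against the change with TMM scaling alone (horizontal axis) in the 3 comparisons, green for the large and purple for the small subunit; the dashed line marks equal values. For 2 extra copies against no extra copy (medians 0.068 and 0.085), 71 of 76 points do not lie above the line. The exceptions there are Rpl5, Rpl22, Rps15a, Rps20 and Rpsa. In each of the other panels 74 of 76 do not lie above it, the exceptions being Rps15a and Rps20. The medians for 2 extra copies against uninduced cells are 0.046 and 0.094.

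The stalk proteins came out unevenly. Rplp0 (chr5:115559467-115563727, plus strand, GRCm38) had 3006, 3322 and 3264 CPM with 2 extra copies, 2735, 2821 and 2782 CPM with no extra copy, and 2534, 2689 and 2717 CPM in uninduced cells. All libraries with 2 extra copies lay above all others, and replicate 1 was the lowest of the group. The log2 change was 0.20 ± 0.034 (1.15-fold, adjusted p = 9.09e-05) against no extra copy and 0.27 ± 0.034 (1.208-fold, adjusted p = 5.07e-07) against uninduced cells, the largest of the 76 in both; without replicate 1 with 2 extra copies these were 0.26 and 0.33. Its partners Rplp1 and Rplp2, which form the tip of the stalk, moved less. Rplp1 had 1764, 1859 and 1879 CPM with 2 extra copies, 1725, 1838 and 1736 CPM with no extra copy, and 1632, 1716 and 1730 CPM in uninduced cells. It was called only against uninduced cells (log2 change 0.12 ± 0.034, adjusted p = 0.00977), a call lost with the length offset and also without replicate 2 or 3 with 2 extra copies (0.11 and 0.10) or without replicate 1 of the uninduced cells (0.091). Rplp2 had 954.9, 1014 and 999.7 CPM with 2 extra copies, 944.2, 1009 and 935.2 CPM with no extra copy, and 904.1, 958.2 and 1010 CPM in uninduced cells; the groups overlapped and it was called in no comparison. Part of the Rplp0 reads can be divided with the close copy Gm8730, which took 18.9% of their joint counts; for the sum of both the log2 changes were 0.21 and 0.27.

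Rpl5 and Rpl11 bind the 5S ribosomal RNA, and the complex is known to hold Mdm2, the inhibitor of p53, when ribosome assembly is disturbed. Rpl5 had 1679, 1741 and 1756 CPM with 2 extra copies, 1577, 1596 and 1586 CPM with no extra copy, and 1620, 1681 and 1718 CPM in uninduced cells. The cells with no extra copy were the lowest group without overlap. Its log2 change with 2 extra copies was 0.12 ± 0.031 against no extra copy (adjusted p = 0.0064) and 0.044 ± 0.031 against uninduced cells (adjusted p = 0.317). Exons of a gene on the other strand cover 24.3% of Rpl5, and whether counting used strand is not stated in the labels. Rpl11 had 1051, 1116 and 1105 CPM with 2 extra copies, 1021, 1021 and 964.9 CPM with no extra copy, and 938.6, 1037 and 1026 CPM in uninduced cells, and was called higher against both (0.12 ± 0.037, adjusted p = 0.0225, and 0.12 ± 0.037, adjusted p = 0.0128). The first call was lost with library totals alone (0.086), without replicate 2 or 3 with 2 extra copies (0.11 and 0.12) or replicate 3 with no extra copy (0.097). The second was lost without replicate 2 with 2 extra copies (0.11), without replicate 1 of the uninduced cells (0.080) and with the length offset (0.077).

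After Rplp0, the largest rises between 2 extra copies and none were all of small subunit genes. Rps24 had 1230, 1240 and 1237 CPM with 2 extra copies, 1111, 1116 and 1073 CPM with no extra copy, and 1022, 1117 and 1146 CPM in uninduced cells; its 3 libraries with 2 extra copies were close together and above all others (log2 change 0.17 ± 0.036 against no extra copy, adjusted p = 0.00108). Rps7 had 1131, 1173 and 1213 CPM with 2 extra copies, 1041, 1074 and 1023 CPM with no extra copy, and 1029, 1078 and 1089 CPM in uninduced cells (0.16 ± 0.034, adjusted p = 0.000853). Both are genes in which loss of one copy causes Diamond-Blackfan anaemia in humans. Rps24 and Rps7 were above both other groups without overlap and were called against both.

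Rps27 and Rps4x rose against the cells with no extra copy, which had the lower level of the other two groups. Rps27, a zinc-binding protein of the small subunit, had 533.4, 541.9 and 554.6 CPM with 2 extra copies, 490.1, 504.6 and 464.8 CPM with no extra copy, and 489.4, 518.1 and 529.1 CPM in uninduced cells. Its log2 change was 0.16 ± 0.038 against no extra copy (adjusted p = 0.0038) and 0.085 ± 0.038 against uninduced cells (adjusted p = 0.0944); with the counts of its close copy Rps27rt added, the second was 0.12 ± 0.037 (adjusted p = 0.0196), a call. Rps4x, encoded on the X chromosome, had 1698, 1723 and 1824 CPM with 2 extra copies, 1626, 1549 and 1543 CPM with no extra copy, and 1642, 1671 and 1653 CPM in uninduced cells. Its log2 change was 0.15 ± 0.033 against no extra copy (adjusted p = 0.00109) and 0.079 ± 0.032 against uninduced cells (adjusted p = 0.073).

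Against uninduced cells, Rpl24 and Rpl37a followed Rplp0, and both were also higher in cells with no extra copy. Rpl24, a large subunit protein that reaches over to the small subunit, had 668.1, 696.9 and 706.7 CPM with 2 extra copies, 656.4, 619.1 and 653.4 CPM with no extra copy, and 551.7, 598.0 and 582.2 CPM in uninduced cells. The 3 groups did not overlap. Its log2 change was 0.26 ± 0.037 for 2 extra copies against uninduced cells (adjusted p = 2.48e-06), 0.15 ± 0.037 for no extra copy against uninduced cells (adjusted p = 0.00378) and 0.10 ± 0.037 for 2 extra copies against none (adjusted p = 0.0494), the last kept in 5 of 14 other settings and lost without any one of replicates 2 and 3 with 2 extra copies, the 3 libraries with no extra copy, and replicates 2 and 3 of the uninduced cells (0.077 to 0.12). Rpl37a, a zinc-binding protein of the large subunit, had 621.1, 645.2 and 642.9 CPM with 2 extra copies, 585.1, 611.9 and 593.7 CPM with no extra copy, and 501.1, 546.5 and 547.9 CPM in uninduced cells, again without overlap. Its log2 change was 0.26 ± 0.037 (adjusted p = 2.64e-06) with 2 extra copies and 0.17 ± 0.037 (adjusted p = 0.00174) with no extra copy, both against uninduced cells. Rpl36 had 525.9, 533.7 and 528.2 CPM with 2 extra copies, 500.5, 551.1 and 511.8 CPM with no extra copy, and 459.2, 485.6 and 490.6 CPM in uninduced cells. Both induced populations lay above the uninduced one (0.15 ± 0.038, adjusted p = 0.0045, and 0.13 ± 0.038, adjusted p = 0.0237) and overlapped each other. Both calls were lost with the length offset, and the second also with DESeq2 (0.13), without the low-count filter (0.12), without replicate 2 with no extra copy (0.081) or replicate 1 or 2 of the uninduced cells (0.097 and 0.14). Rps9, whose yeast counterpart takes part in the accuracy of decoding, had 1328, 1408 and 1412 CPM with 2 extra copies, 1292, 1322 and 1251 CPM with no extra copy, and 1190, 1242 and 1255 CPM in uninduced cells (0.17 ± 0.034 for 2 extra copies against uninduced cells, adjusted p = 0.000247).

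**Figure D4:**
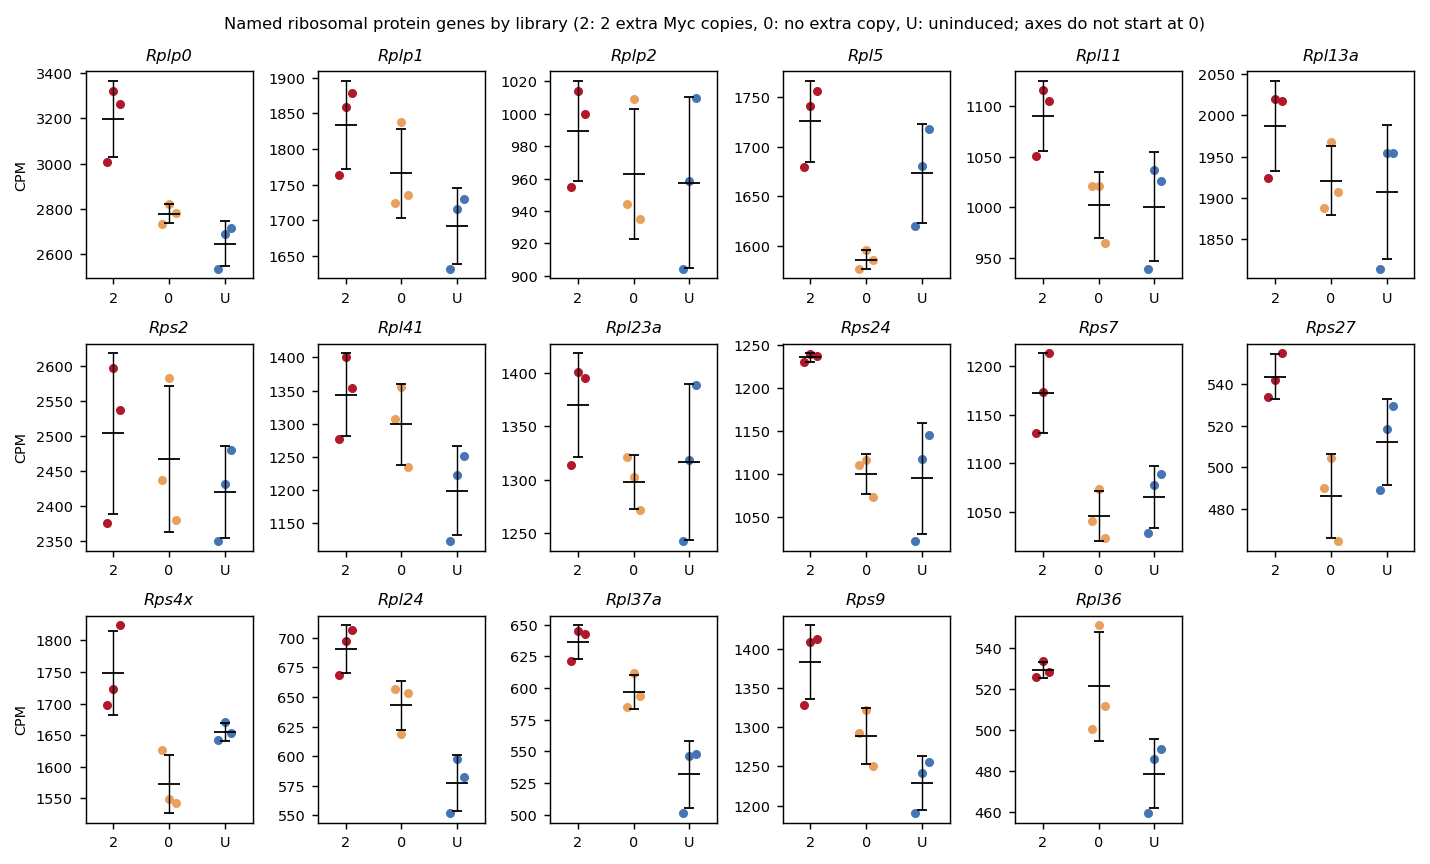
CPM per library (points) with mean ± SD (bars, n = 3) of the stalk proteins, the 5S RNA binding proteins, the 5 genes with the highest TPM and the genes with the largest called rises; 2 marks cells with 2 extra copies of Myc, 0 cells with no extra copy and U uninduced cells, and axes do not start at 0. Rplp0 lies between 3006 and 3322 CPM with 2 extra copies, above all other libraries.

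The genes with the highest level per length were not those that rose most. Rpl13a had 1924, 2020 and 2017 CPM with 2 extra copies, 1888, 1968 and 1907 CPM with no extra copy, and 1814, 1954 and 1954 CPM in uninduced cells, and was called in no comparison. Rps2 had 2376, 2598 and 2538 CPM with 2 extra copies, 2438, 2583 and 2381 CPM with no extra copy, and 2350, 2432 and 2480 CPM in uninduced cells, again with overlap and no call. Rpl23a had 1314, 1401 and 1396 CPM with 2 extra copies, 1321, 1302 and 1271 CPM with no extra copy, and 1242, 1318 and 1389 CPM in uninduced cells, with no call; exons of a gene on the other strand cover 59.7% of it. Rpl41, the smallest ribosomal protein, had 1276, 1401 and 1354 CPM with 2 extra copies, 1307, 1355 and 1234 CPM with no extra copy, and 1122, 1222 and 1251 CPM in uninduced cells. It was called against uninduced cells (log2 change 0.17 ± 0.044, adjusted p = 0.00956). Across the 76 genes, the change between 2 extra copies and none had a Pearson r of 0.299 with the log2 level, 0.332 with log2 transcript length and -0.392 with transcript GC content. These are descriptions over genes of the same libraries, and genes are not independent. For 2 extra copies against uninduced cells the same r values were -0.074, -0.025 and -0.045.

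The genes called were also counted by place and role. Against no extra copy, 30 of all 76 ribosomal protein genes were called higher, where 8.3% of all tested genes were. Within the lists, the genes called were 3 of 4 near the catalytic centre and 3 of 8 along the exit tunnel. They were 1 of 4 at the decoding site and mRNA entry, and 0 of 6 in the head, beak and platform. The median log2 change of each of these lists was positive, also against uninduced cells. The lists are short, and differences between them, or from all 76 genes, were not tested. Near the catalytic centre, Rpl3, Rpl4 and Rpl8 rose with 2 extra copies in both comparisons, with log2 changes of 0.13, 0.11 and 0.12 against no extra copy and 0.13, 0.12 and 0.16 against uninduced cells. The calls of Rpl3 held in every setting and with any one library left out. That of Rpl8 against no extra copy was lost without replicate 2 with 2 extra copies (0.099) or replicate 1 with no extra copy (0.11). That of Rpl4 was lost with library totals alone (0.073) and without replicate 2 or 3 of either of these groups (0.090 to 0.11), and against uninduced cells without replicate 3 with 2 extra copies (0.097). The fourth gene there, Rpl10, was not called. Along the exit tunnel for the new protein, 3 of 8 genes (Rpl4, Rpl19 and Rpl22) were called in both comparisons, while Rpl39 (0.051 and 0.047) and Rpl26 (0.062 and 0.044) were not called. The call of Rpl19 against uninduced cells (0.094 ± 0.034, adjusted p = 0.042) was kept in 7 of 14 settings and in 3 of 9 fits with a library left out, and with the length offset the change was 0.041 (adjusted p = 0.327). Its call against no extra copy was lost with library totals alone (0.070) and without replicate 2 or 3 with 2 extra copies or replicate 1 or 3 with no extra copy (0.093 to 0.10). Rpl22 lost its call against no extra copy with library totals alone (0.081), without replicate 2 with 2 extra copies (0.12) and without replicate 2 with no extra copy (0.097), and its call against uninduced cells without replicate 1 of these (0.10).

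At the decoding site and mRNA entry, Rps3 rose in both comparisons (0.12 and 0.11), the second call being lost without replicate 2 with 2 extra copies (0.099), and Rps2, Rps15 and Rps23 did not pass the test. In the head, beak and platform of the small subunit, edgeR called 0 of 6 genes against no extra copy (2 at an unadjusted p below 0.05, 1 by DESeq2), and Rps19 and Rps26 were called against uninduced cells (0.095 and 0.11). Both calls were lost with the length offset (0.043, adjusted p = 0.298, and 0.055, adjusted p = 0.201). That of Rps19 was kept in 9 of 14 settings and was lost without replicate 2 or 3 with 2 extra copies or any one uninduced library (0.081 to 0.10). That of Rps26 was lost without replicate 3 with 2 extra copies (0.094) or replicate 1 of the uninduced cells (0.088). Rpsa, which is also known as a precursor of the laminin receptor, had among the smallest changes, 0.029 ± 0.031 and 0.023 ± 0.031. Rps6, the target of the S6 kinases, rose against no extra copy (0.098 ± 0.031, adjusted p = 0.0286) and had 0.063 ± 0.031 against uninduced cells (adjusted p = 0.145). The call was lost with library totals alone (0.063), without the low-count filter (0.10), and without replicate 2 or 3 with 2 extra copies or any one library with no extra copy (0.085 to 0.11). Of the 18 genes listed for Diamond-Blackfan anaemia, 5 rose against no extra copy and 9 against uninduced cells. Of all 76 ribosomal protein genes, which include these, 30 and 38 did. A difference between the 18 genes and the others was not tested. Of the 4 genes on the X chromosome, Rps4x rose against no extra copy and Rpl36a against uninduced cells (0.12 ± 0.038, adjusted p = 0.0195). The call of Rpl36a was lost with the length offset (0.044, adjusted p = 0.376), without replicate 2 or 3 with 2 extra copies (both 0.12) and without replicate 1 of the uninduced cells (0.086).

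Replicates were tight for most of the genes, with a median coefficient of variation of 2.89% with 2 extra copies, 2.35% with no extra copy and 3.64% in uninduced cells. Rpl10 was the least tight, at 11.9% with 2 extra copies and 18.4% in uninduced cells. It has a close copy, Rpl10-ps3, that held 61.4% of their joint counts. Rpl10 had 572.9, 451.4 and 506.7 CPM with 2 extra copies, 477.2, 479.8 and 523.9 CPM with no extra copy, and 612.4, 541.2 and 421.0 CPM in uninduced cells. The sum of Rpl10 and its close copies was far steadier, with 1354, 1353 and 1387 CPM with 2 extra copies, 1255, 1246 and 1254 CPM with no extra copy, and 1325, 1376 and 1321 CPM in uninduced cells. On the sum, the log2 change was 0.13 ± 0.031 for 2 extra copies against none (adjusted p = 0.00414), 0.026 ± 0.031 for 2 extra copies against uninduced cells (adjusted p = 0.584) and -0.099 ± 0.031 for no extra copy against uninduced cells (adjusted p = 0.026). Adding the counts of close copies was chosen after the data were seen. Copies held 80% of the joint counts for Rpl27, 47.7% for Rpl35, 46.3% for Rps12, 44.8% for Rpl29, 33.5% for Rps18, 24.4% for Rpl15 and 17.4% for Rps2, so the values of these genes are uncertain. With the copies added, Rpl27 was called against no extra copy (log2 change 0.11 ± 0.035, adjusted p = 0.0249), and, besides Rps27, Rpl35 and Rps12 against uninduced cells (0.13 ± 0.035, adjusted p = 0.00622, and 0.090 ± 0.031, adjusted p = 0.0292).

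The annotated starts of these genes were searched for runs of pyrimidines. A TOP motif opens the mRNA, while a run near an annotated start need not, so the shares below are not shares of TOP mRNAs. RefSeq (GRCm38.p6) lists start regions for 56 of the 76 genes, at 66 starts, each from 250 bases before to 50 bases after. The longest run of C and T that opens with C, on the strand of the gene and within 20 bases on either side of the start, had at least 8 bases at 43.9% of these starts, against 12.6% of all 32851 starts listed. It had at least 5 bases at 71.2%, against 45.9%. Among starts of the genes called higher against no extra copy 37.0% had 8 or more bases, and among those of genes not called 48.7% did. At 5 or more bases the order was the other way, with 74.1% for genes called and 69.2% for genes not called. These differences were not tested. Shown here are 30 bases before to 30 bases from the start, with that run in capitals, for genes with a long run (Rps24, Rps27, Rplp2, Rps9 and Rpl13a), for Rplp0 and Rpl37a, where it is short, and for Rps4x and Rpl24, where no run of 5 was found. Of several starts the one with the longest run is shown. The run of Rplp0 opens 13 bases after the annotated start, and that of Rpl37a lies before it, opening at base -16. The start in use in these cells was not measured.
Rps24 (chr14:24490648-24490707, plus strand): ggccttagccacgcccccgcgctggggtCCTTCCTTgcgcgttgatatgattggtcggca
Rps27 (chr3:90213619-90213678, minus strand): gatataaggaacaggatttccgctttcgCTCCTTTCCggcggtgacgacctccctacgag
Rplp2 (chr7:141447621-141447680, plus strand): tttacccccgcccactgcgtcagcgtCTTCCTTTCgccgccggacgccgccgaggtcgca
Rps9 (chr7:3704011-3704070, plus strand): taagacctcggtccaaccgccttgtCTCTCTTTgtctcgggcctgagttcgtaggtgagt
Rpl13a (chr7:45128716-45128775, minus strand): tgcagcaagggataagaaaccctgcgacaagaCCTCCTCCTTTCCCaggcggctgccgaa
Rplp0 (chr5:115559437-115559496, plus strand): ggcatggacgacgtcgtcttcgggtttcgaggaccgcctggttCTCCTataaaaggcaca
Rpl37a (chr1:72711230-72711289, plus strand): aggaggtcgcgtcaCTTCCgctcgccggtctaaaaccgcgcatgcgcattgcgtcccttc
Rps4x (chrX:102189362-102189421, minus strand): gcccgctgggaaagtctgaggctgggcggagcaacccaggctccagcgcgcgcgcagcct
Rpl24 (chr16:55966245-55966304, plus strand): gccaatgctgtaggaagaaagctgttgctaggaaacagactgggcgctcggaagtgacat
Rps24 and Rps27, which rose, carry runs across the start, as do Rplp2 and Rps9, of which Rplp2 was not called; Rpl24, called in all 3 comparisons, has none of 5 bases in this window. Genes with and without a long run stand among both the called and the other genes.

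The E-box CACGTG, the same letters on both strands and the element that Myc binds with its partner Max, stood in 12.1% of the 66 starts (8 starts of 6 genes), against 7.15% of all starts listed and 10% of starts of other tested genes. A match is a string of letters and not a measured site. The 40 bases around it are given for the 6 genes, with the motif in capitals.
Rpl14 (chr9:120571332-120571371, plus strand): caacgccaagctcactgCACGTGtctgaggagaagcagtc
Rpl19 (chr11:98026674-98026713, plus strand): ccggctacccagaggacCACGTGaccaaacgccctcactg
Rpl23 (chr11:97782420-97782459, minus strand): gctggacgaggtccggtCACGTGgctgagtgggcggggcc
Rpl34 (chr3:130730531-130730570, minus strand): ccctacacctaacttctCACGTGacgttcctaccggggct
Rpl13a (chr7:45128923-45128962, minus strand): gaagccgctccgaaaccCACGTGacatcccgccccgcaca
Rps19 (chr7:24884776-24884815, plus strand): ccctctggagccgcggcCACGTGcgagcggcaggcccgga
Rpl14, Rpl19 and Rpl23 were called higher against no extra copy, with log2 changes of 0.15, 0.10 and 0.13; Rps19, Rpl34 and Rpl13a were not, with 0.093, 0.082 and 0.049.

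The factors that build ribosomes had larger median changes than the ribosomal proteins. Of 26 nucleolar biogenesis factors, 24 were called higher with 2 extra copies against no extra copy and 24 against uninduced cells (22 and 23 by DESeq2), and 0 lower in either, also at an unadjusted p below 0.05 and by DESeq2. Of all tested genes edgeR called 8.3% higher against no extra copy and 12.8% against uninduced cells, and these shares also apply to the lists that follow. The median log2 changes of the nucleolar factors were 0.236 and 0.269, against 0.085 and 0.094 for the ribosomal proteins. Examples against no extra copy are Ddx21, a nucleolar RNA helicase (0.34 ± 0.036, adjusted p = 2.27e-08), and Nolc1, a partner of small nucleolar RNPs (0.33 ± 0.039, adjusted p = 2.51e-07). The difference between these lists was not tested. Of 12 chaperones and import or assembly partners of single ribosomal proteins, 6 rose against no extra copy by edgeR and 0 by DESeq2 (8 at an unadjusted p below 0.05), among them Tsr2, the escort of Rps26 (0.30 ± 0.080, adjusted p = 0.00871), and Rpf2 and Rrs1, which bring in the 5S RNA complex (0.23 ± 0.058, adjusted p = 0.00483, and 0.18 ± 0.050, adjusted p = 0.0123). The call of Tsr2 was also lost without replicate 2 with 2 extra copies (0.245) or with no extra copy (0.255), and that of Rrs1 without replicate 2 with 2 extra copies (0.16) or replicate 1 or 2 with no extra copy (0.17 and 0.18).

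Of 16 other mRNAs with a known TOP motif, 9 rose against no extra copy and 0 fell by edgeR and by DESeq2 (14 and 0 at an unadjusted p below 0.05), with a median log2 change of 0.107, and 9 rose and 1 fell against uninduced cells, with a median of 0.103. Eif4b, an initiation factor, rose in both (0.18 ± 0.034, adjusted p = 0.000311, and 0.25 ± 0.034, adjusted p = 9.55e-07), as did Pabpc1, the poly(A) binding protein (0.15 ± 0.029, adjusted p = 0.000205, and 0.13 ± 0.029, adjusted p = 0.00104). Eef1a1, the elongation factor that brings tRNA, was the one called lower against uninduced cells (-0.097 ± 0.032, adjusted p = 0.0254). That call was lost with DESeq2 (adjusted p = 0.0981), with RLE factors (-0.087), in the fit of only these groups (-0.089), without replicate 1 with 2 extra copies (-0.044) and without replicate 2 or 3 of the uninduced cells (-0.084 and -0.080). With no extra copy Eef1a1 was also lower than in uninduced cells (-0.14 ± 0.032, adjusted p = 0.00379), a call kept in every setting and with any one library left out. Of 10 regulators of TOP mRNAs, which included Larp1, Mtor and its partners, 0 passed the test against no extra copy by edgeR or DESeq2 (2 higher and 1 lower at an unadjusted p below 0.05), and 0 were higher and 1 lower against uninduced cells. The last was Mtor (-0.13 ± 0.049, adjusted p = 0.0438), whose call was lost in 6 of 14 settings, among them DESeq2 (adjusted p = 0.332) and the length offset (-0.069), and in 8 of the 9 fits with a library left out (-0.14 to -0.11), all but that without replicate 2 of the uninduced cells.

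Ribosomal proteins and relatives whose names fall outside the rule gave a mixed picture. Rack1, Rps3a1 and Rpl36al, which are parts of the ribosome, rose against no extra copy with log2 changes of 0.13, 0.14 and 0.17. Rpl22l1 and Rps27l, paralogs of Rpl22 and Rps27, rose as well (0.23 ± 0.044, adjusted p = 0.000307, and 0.18 ± 0.043, adjusted p = 0.0038), and their namesakes Rpl22 and Rps27 had 0.12 and 0.16. Rpl10l, a paralog of Rpl10, was lower with 2 extra copies than in uninduced cells (-0.28 ± 0.056, adjusted p = 0.000272). It was also lower with no extra copy than in uninduced cells (-0.20 ± 0.055, adjusted p = 0.0106), a call lost with DESeq2 (adjusted p = 0.183) and without replicate 2 with no extra copy (-0.20). Between 2 extra copies and none it had -0.078 ± 0.059 (adjusted p = 0.41). Of the 78 mitochondrial ribosomal protein genes, which serve the separate ribosome of mitochondria, 14 rose and 0 fell against no extra copy by edgeR (5 and 0 by DESeq2, 23 and 0 at an unadjusted p below 0.05). Against uninduced cells 32 rose and 0 fell (15 and 0 by DESeq2, 42 and 0 at an unadjusted p below 0.05). By edgeR these were 17.9% and 41.0% of the list, against 8.3% and 12.8% of all tested genes called higher. A share of all tested genes by DESeq2 is not given. The medians of the mitochondrial genes, 0.112 and 0.149, lay above those of the cytosolic genes, with a wider spread from -0.17 to 0.42 against no extra copy.

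**Figure D5:**
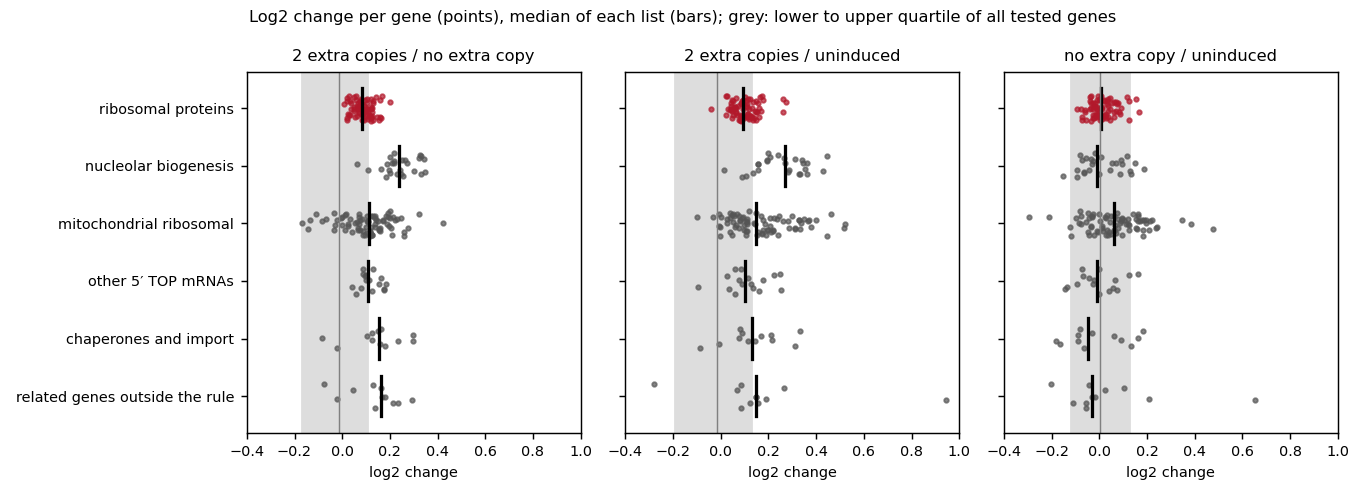
Log2 change per gene (points) and the median of each list (bars) for the ribosomal proteins and 5 lists of related genes in the 3 comparisons; the grey band runs from the lower to the upper quartile of all tested genes and the grey line is their median. The cytosolic ribosomal proteins (red) lie in a narrow band, from 0.0080 to 0.20 in the left panel, and nucleolar biogenesis factors lie further right, with a median of 0.236.

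Summed levels of markers of other cell types differed between the groups. Single genes weigh much in these sums. With 2 extra copies Tagln averaged 53.77 CPM of the fibroblast sum, Sparc 105.7 CPM of the extraembryonic endoderm sum and Tubb3 111.7 CPM of the neuroectoderm sum. The summed level of fibroblast markers (7 of 10 above the filter) was 122 to 131 CPM with 2 extra copies, 201 to 226 CPM with no extra copy and 81.3 to 85.8 CPM in uninduced cells. Extraembryonic endoderm markers (6 of 11) summed to 199 to 215 CPM with 2 extra copies, 303 to 348 CPM with no extra copy and 235 CPM in uninduced cells. Trophectoderm markers (4 of 7) summed to 66.5 to 87.1 CPM with 2 extra copies, 109 to 122 CPM with no extra copy and 41.2 to 44.3 CPM in uninduced cells. Neuroectoderm markers (4 of 7) summed to 177 to 185 CPM with 2 extra copies, 193 to 205 CPM with no extra copy and 190 to 199 CPM in uninduced cells. Markers of the two-cell-like state, a rare state of ESC cultures, were highest with 2 extra copies (7 of 8, 396 to 403 CPM, against 257 to 336 CPM with no extra copy and 204 to 218 CPM in uninduced cells). No marker was at 0 in all 9 libraries; Lum, Afp and Neurog2 were at 0 in 8 of them, Dcn had at most 0.515 CPM, Gata6 1.69 CPM and Cdx2 1.54 CPM in any library. Against no extra copy, edgeR called lower 4 of 7 tested fibroblast, 5 of 6 endoderm, 3 of 4 trophectoderm and 3 of 4 neuroectoderm markers, and 0 higher. Of all tested genes 7.7% were lower. Col3a1 (log2 change 0.315) and Tubb3 (0.070) went the other way without a call. Some calls, as those of Dab2, Eomes and Nes, were lost in other fits. The part of the marker differences in the ribosomal protein values was not tested.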

How the data were processed

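Gene expression was measured by single-end 75 bp RNA-seq of total RNA, per the labels. The deposited values are expected counts per gene, which the authors estimated with RSEM 1.17, per the submitters' processing notes (GRCm38; annotation release 84, per the file headers); cutadapt, Picard and limma are named without a role, while for the aligner a name is not given in the sources used. Of the values, 14.9% were not whole, and all were rounded. Gene names and lengths came from GENCODE M21 on GRCm38.

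The edgeR filter (filterByExpr) left 13424 genes with 99.8% of counts. CPM were computed after TMM scaling. Groups were compared with the edgeR 4.0.16 quasi-likelihood test (R 4.3.3) over all 9 libraries, Benjamini-Hochberg adjusted over all genes; calls are at adjusted p below 0.05, and SE is the absolute log2 change over the root of F. The estimated common biological CV was 0.0394. The procedure was also run on simulated counts, with a common spread for all genes, no length trend and no library that stands apart. Its outcome is not given here, and it does not show how the calls hold in these data. Alternatives were other scalings, tests (DESeq2 1.42.0, limma 3.58.1), filters, a length offset, a replicate block, added pseudogene or close-copy counts (minimap2 2.31-r1302, 95% identity, 80% of the copy) and each library left out. Members, lists and tests were chosen with earlier results of these data known. Per-library values are given for the stalk, Rpl5, Rpl11, the 5 highest TPM and the 6 largest called changes per direction (1 gene, counted in all totals, is not reported here); genes named from the other lists are among the 3 per direction and comparison with the smallest p.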

Additional observations from a re-analysis of the deposited data

How the results depend on the processing

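No called gene named per library changed direction under any alternative; of their 552 values, 508 stayed on their side of the threshold and 44 lost the call. With library totals in place of TMM, 16 genes rose with 2 extra copies against none (median 0.0497) and 7 with no extra copy against uninduced cells. With 2 extra copies against uninduced cells 32 rose in that setting (median 0.0744). With the length offset, 21 rose with 2 extra copies against uninduced cells (median 0.0456; 0.0474 with the replicate block as well), and 5 fell with no extra copy against uninduced cells (7 with the block as well). In that last comparison 1 gene fell with named pseudogenes added, with all close copies added (an alternative chosen after seeing the data), and in the fit of only these groups. DESeq2 called 32, 40 and 2 genes higher in the 3 comparisons. The cause of these changes was not tested. Leaving out one library at a time gave 17 to 58 genes higher for 2 extra copies against none, 20 to 60 against uninduced cells, and 2 to 4 higher and 0 to 1 lower for no extra copy against uninduced cells. For these settings and fits, shares of all tested genes called are not given. The log2 difference of the large to small ratio between 2 extra copies and none was -0.0011 as a mean of log2 CPM and -0.0006 without the highest gene of each subunit; against uninduced cells it was 0.0096 and 0.0045.

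The replicate numbers were not taken as pairs, since deviations of same-numbered libraries correlated between -0.097 and 0.278. With the replicate block 34, 43 and 4 genes were called higher in the 3 comparisons. Expected counts divide reads between close copies, which limits what can be said of single genes with copies.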
